A study of Mus musculus with 11 samples.

Results

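E3 and GOF18 are lines of mouse epiblast stem cells, and their transcript levels were compared on 8 Illumina MouseRef-8 v2 bead arrays of the 11 in the series. The 4 E3 arrays came from EpiSC-GFP+ and EpiSC-GFP-, which are E3 cells grown in CM, an EpiSC medium, and separated on a cell sorter into cells with and cells without signal of an Oct4-GFP reporter (2 arrays each). The 4 GOF18 arrays came from Epi-Sox2, GOF18 cells that overexpress wild-type Sox2 and were cultured in CM, and from EpiSC, GOF18 cells with no transgene named in the labels (2 arrays each). All cells are labelled male, and the arrays within a group are labelled biological replicates. Arrays of embryonic stem cells and of a further epiblast line, T9, were left out. The medium of the EpiSC cultures, the promoter behind the Sox2 transgene and the origin of each line are not given in the sources used here.

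The contrast was the mean of both E3 group means minus the mean of both GOF18 group means, so a positive difference is a higher level in E3. Each line was represented by itself alone, the E3 cells were sorted and the GOF18 cells were not labelled as sorted, and a Sox2 transgene was present in 2 of the 4 GOF18 arrays. Line, sorting and transgene therefore cannot be told apart in the contrast. The p-values of the contrast measure the spread between the 2 arrays of each group. They do not measure the spread between the groups of a line, or between lines of epiblast stem cells.

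Epiblast stem cells are grown from the epiblast of the embryo after implantation and depend on FGF and on activin or Nodal signals. They stand for the primed state of pluripotency, in which Pou5f1 (Oct4) and Sox2 are kept while many genes of the naive state, seen in embryonic stem cells, are low. Activin and Nodal act through Smad2, Smad3 and Smad4 with Foxh1 as a DNA-binding partner, Tdgf1 (Cripto) is a co-receptor for Nodal, Lefty1 and Lefty2 are induced inhibitors, and Tgif1 is a repressor that binds Smad proteins.

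Markers of epiblast stem cells were detected in both lines. Pou5f1 and Sox2 were detected on all 8 arrays, as were 8 of 12 primed epiblast genes on the array (Fgf5, Otx2, Pou3f1, Zic2, Cldn6, Igfbp3, Car4 and Pim2). Of the other 4, Zic5 was detected on no array, Sox3 on 1 GOF18 array, Sox4 on 1 array of each line and Sfrp2 on 2 GOF18 arrays. The Oct4-GFP sort was not mirrored by the Pou5f1 signal, which averaged 12.75 in EpiSC-GFP+ and 13.15 in EpiSC-GFP- on the log2 scale used throughout. Of 17 fibroblast markers on the array, which stand for feeder cells, 12 were detected on no E3 array and 8 on no GOF18 array, and Col1a2, Col3a1, Dcn, Lum and Postn were among those detected on none of the 8. Acta2, Thy1, Ccn2 and Tagln were detected on all 8 arrays, and Fbln2 on 3 E3 and 4 GOF18 arrays. Of 15 endoderm markers 11 were detected on no E3 array and 6 on no GOF18 array, and of 12 neuroectoderm markers 11 were detected on no array of either line. The endoderm markers Hhex, Dab2 and Apoe and the neuroectoderm marker Nes were detected on all 8 arrays. Of 12 trophectoderm markers 6 were detected on no E3 array and 4 on no GOF18 array, with Cdx2, Elf5 and Hand1 detected on none. Tfap2c, Krt8, Krt18 and Elf3 were detected on all 8 arrays. Eif2s3y, a gene of the Y chromosome, was detected on all 8 arrays, and Xist on none.

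Fewer probes were detected on the E3 arrays, and those of EpiSC-GFP- were dimmer. Mean bead intensity was 310.7 and 299.9 in EpiSC-GFP+, 266.8 and 199.7 in EpiSC-GFP-, and 283.6 to 371 in GOF18. In E3 9250 to 10315 probes were detected, against 10745 to 11415 in GOF18. Pearson correlations of log2 signal across probes were 0.938 to 0.963 between lines, 0.961 to 0.962 between the E3 groups, 0.969 to 0.971 between the GOF18 groups, and 0.988 to 0.994 between replicates. The ranges between lines and between the E3 groups met. EpiSC-GFP- arrays correlated at 0.963 and 0.962 with EpiSC replicate 2 of GOF18, as closely as with EpiSC-GFP+, and at 0.955 and 0.954 with EpiSC replicate 1.

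The lines differed in a large share of their transcripts, by small amounts in most. Of 8541 genes tested, 4444 passed the threshold of an adjusted p-value of 0.05 in limma, or 52.0% of them, with 2140 higher in E3 (25.1%) and 2304 lower (27.0%). A difference of at least 1 log2 unit, a doubling, was found for 472 called genes (5.53%), of which 137 were higher in E3 and 335 lower. In 2386 called genes (27.9%) the 4 E3 arrays lay wholly above or below the 4 GOF18 arrays, and 2724 called genes differed more between the lines than between the groups inside either line. Between single groups of the lines, 43.8% of genes were called for EpiSC-GFP+ against Epi-Sox2, 41.6% for EpiSC-GFP+ against EpiSC, 45.2% for EpiSC-GFP- against Epi-Sox2 and 36.4% for EpiSC-GFP- against EpiSC. Inside the lines, 2340 genes (27.4%) were called between EpiSC-GFP+ and EpiSC-GFP-, and 1746 (20.4%) between Epi-Sox2 and EpiSC. In a further fit the groups were treated as a random block, so that arrays of a group could be alike, by a correlation shared by all genes. Arrays remained the units of that fit, so it only partly allows for the few groups behind each line. With it 397 genes (4.65%) were called, 99 higher in E3 (1.16%) and 298 lower (3.49%).

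The split into higher and lower depended on scaling. Quantile normalization gives all arrays 1 distribution, and the median difference over all genes was -0.02. Scaling each array only by its median moved that median to -0.30, and the share of calls that were higher in E3 was 13.4%, against 48.2% after quantile normalization. Differences of about this size, rises as well as falls in E3, therefore depend on the choice of scale. The part of the dimmer EpiSC-GFP- arrays in the falls was not tested. Among the lists described below, median scaling left 0 members higher and 5 lower for epithelial contacts, 2 and 10 for Nodal and activin, 1 and 6 for FGF and ERK, 0 and 6 for Wnt, 1 and 4 for interferon and antigen presentation, 1 and 2 for LIF and Stat3, 0 and 4 each for Notch and the cell cycle, 1 and 7 for matrix and integrins, 5 and 7 for glutathione and redox, 1 and 5 for the p53 response, and 0 and 6 for heat shock and chaperones.

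**Figure D1:**
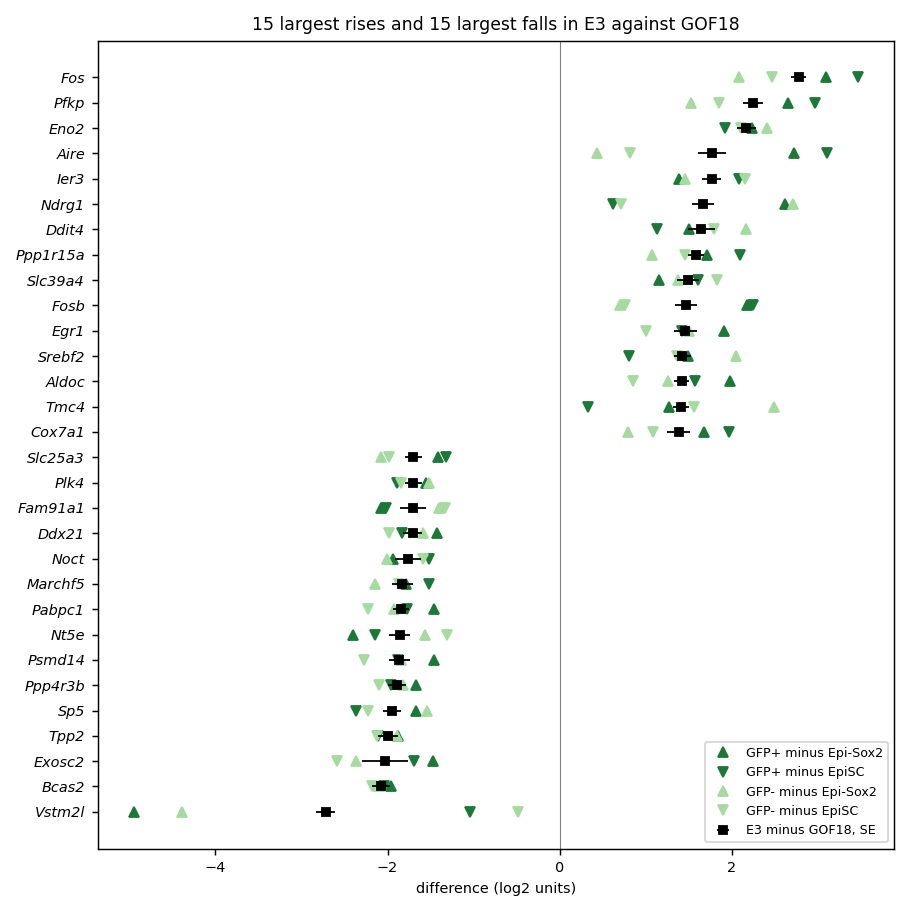
Differences in log2 signal (x axis) for the 15 genes with the largest rise and the 15 with the largest fall in E3 against GOF18 among genes with no overlap of arrays. Black squares with bars are E3 minus GOF18 with its standard error, and triangles are the 4 differences between single groups of 2 arrays; Fos led the rises at 2.77 and Vstm2l the falls at -2.72, the second of these with its triangles far apart. Fosb was detected on no GOF18 array, and Tpp2, Sp5, Ppp4r3b, Noct and Plk4 were detected on no E3 array with the probe shown, so their plotted sizes are set against undetected signal.

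Genes of the immediate early response, which are switched on quickly and briefly by growth factors or by stress, were mostly higher in E3. Of 10 tested members of this list, 7 were higher (Fos, Ier3, Fosb, Ccn1, Jun, Junb and Zfp36), none was lower and 3 were not called, with a median difference of 0.82. The share higher was 70%, against 25.1% of all genes tested, and 27.0% of all genes were lower. These shares of all genes are to be set beside every list count below. A gene was tested if at least 1 group detected it, so a member detected in 1 line alone entered through the line where it was high, as Fosb did here. In 6 of the 7 the arrays of the lines did not overlap, against 12.0% of all genes tested that were called higher without overlap. After median scaling the list median was 0.50, with 5 members higher and 2 lower.

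Fos, a subunit of the AP-1 transcription factor, had the largest rise of all. Its log2 signal was 8.54 and 8.51 in EpiSC-GFP+ and 7.55 and 7.49 in EpiSC-GFP-, against 5.55 and 5.33 in Epi-Sox2 and 5.05 and 5.06 in EpiSC. Every E3 array lay well above every GOF18 array, and the sorted fraction with reporter signal was the higher of the E3 fractions. The difference was 2.77 ± 0.09 (SE), a 6.84-fold higher signal in E3 (limma adjusted p = 1.74e-06, and 0.00367 with groups as a random block). Fosb, another AP-1 subunit, reached 6.29 and 6.70 in EpiSC-GFP+ and 5.21 and 4.83 in EpiSC-GFP-, against 4.18 to 4.33 on the GOF18 arrays. It was detected on 3 of the 4 E3 arrays and on no GOF18 array. Its signal was at least 2.10-fold higher in E3 if the undetected E3 array is taken at its measured value. The call of Fosb was lost with groups as a random block (adjusted p = 0.0579).

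Ier3, an early response gene linked to survival under stress, was almost level within E3. It had 9.85 and 9.90 in EpiSC-GFP+ and 9.91 and 9.97 in EpiSC-GFP-, against 8.57 and 8.41 in Epi-Sox2 and 7.59 and 7.99 in EpiSC. The rise was 1.77 ± 0.11 (SE, adjusted p = 1.67e-05), and no E3 array reached down to the GOF18 range. Egr1, a zinc finger factor induced through ERK, had 10.37 and 10.43 in EpiSC-GFP+ and 9.90 and 10.08 in EpiSC-GFP-, against 8.46 and 8.52 in Epi-Sox2 and 8.69 and 9.28 in EpiSC. Its rise was 1.46 ± 0.13 (SE, adjusted p = 6.29e-05), and its 2 EpiSC arrays were further apart than those of any other group.

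Ccn1, a secreted matrix protein, averaged 8.50 in EpiSC-GFP+ and 8.85 in EpiSC-GFP-, against 7.33 in Epi-Sox2 and 7.29 in EpiSC, a difference of 1.36. Jun, the partner of Fos in AP-1, was 0.95 higher in E3. Both, with Fos and Ier3, were called with groups as a random block, the 4 members of the list for which that held. Ppp1r15a, which directs a phosphatase to the stress-regulated translation factor eIF2 and is itself stress-induced, had 9.22 and 9.31 in EpiSC-GFP+ and 8.65 and 8.60 in EpiSC-GFP-, against 7.64 and 7.47 in Epi-Sox2 and 7.25 and 7.09 in EpiSC. This was a rise of 1.58 ± 0.09 (SE, adjusted p = 1.61e-05) with a clear gap between the lines. Atf3, Jund and Klf6 differed by -0.10, -0.13 and -0.17 and were not called.

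Sorting and line cannot be told apart in these rises. Of 12 tested genes of heat shock and chaperones, 2 were higher in E3 (Hspb1 and Trib3) and 4 lower (Hspd1, Asns, Hspe1 and Hspa8), with a median of -0.12, and Hspd1 alone was called with groups as a random block. Hspb1, a small heat shock protein, was 0.51 higher on average, with 9.59 in EpiSC-GFP+ and 9.004 in EpiSC-GFP-, against 9.58 in Epi-Sox2 and 8.003 in EpiSC. Only the EpiSC arrays of GOF18 stood low, and set against Epi-Sox2 alone the difference was -0.28. The mitochondrial chaperonin Hspd1 fell by 1.17 on its brighter probe and was 0.70 higher on its other probe, both called, so its direction was not settled.

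**Figure D2:**
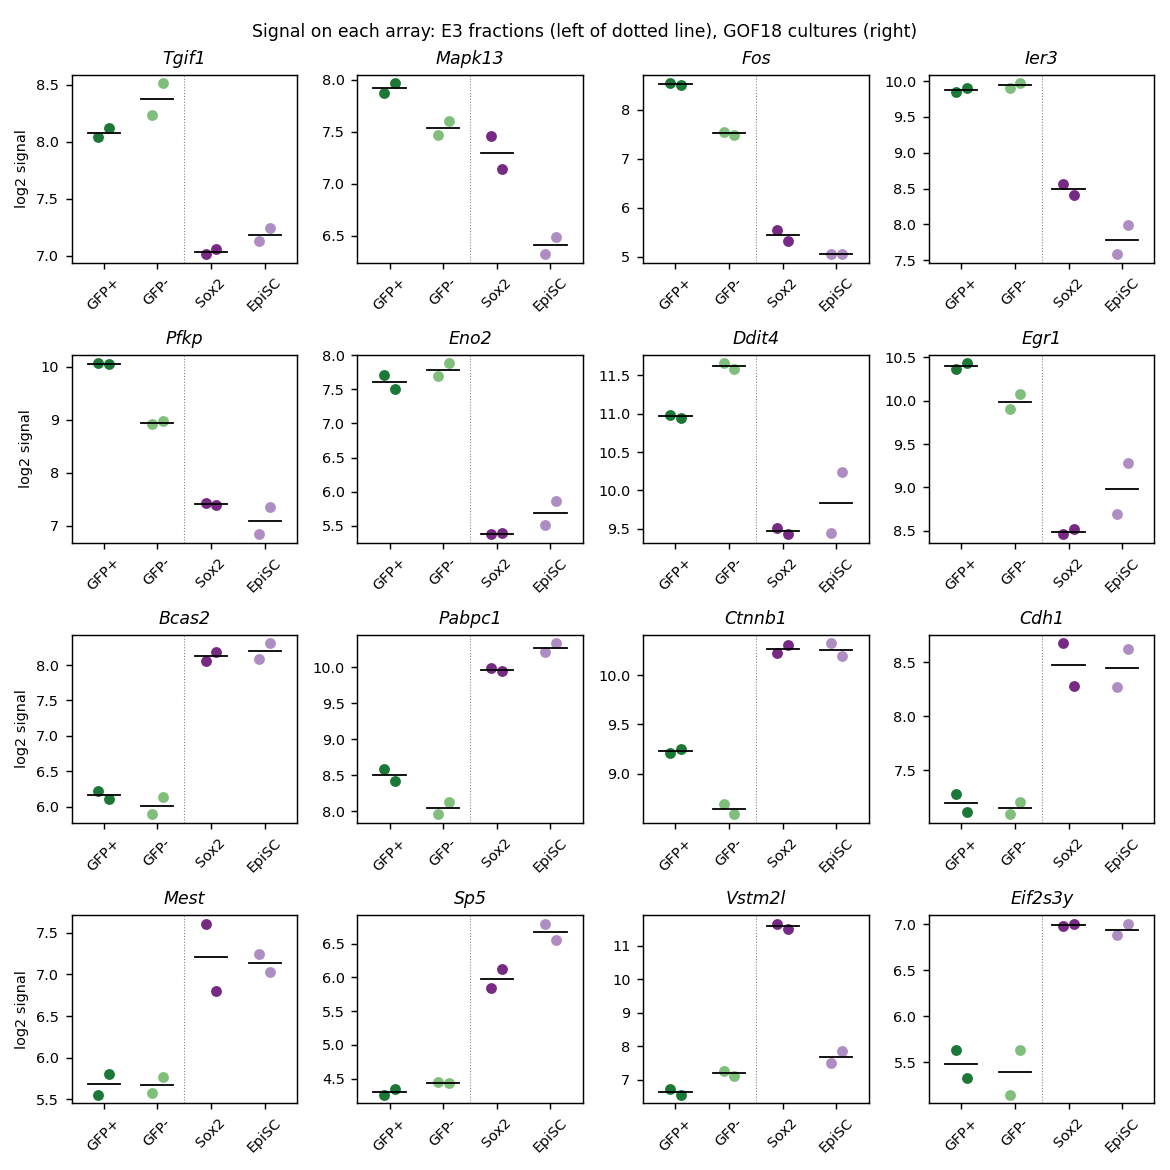
Log2 signal (y axis, with its own range in each panel) of 16 genes on each of the 8 arrays. Points are arrays, black lines are means of 2, and the dotted line parts the E3 fractions EpiSC-GFP+ and EpiSC-GFP- (left) from the GOF18 cultures Epi-Sox2 and EpiSC (right). In all 16 panels the E3 arrays lie wholly on 1 side of the GOF18 arrays. The largest rises and falls among these genes were picked for having no overlap, so their separation follows from that choice. Of all genes tested, 27.9% were called without overlap.

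Genes of glycolysis and of the response to low oxygen were mostly higher in E3. Glycolysis turns glucose into pyruvate and lactate, and many of its enzymes are induced by the hypoxia factor HIF, which primed pluripotent cells are known to use. Of 15 tested members 10 were higher, 1 was lower and 4 were not called, and the median was 0.47. The share that was higher was 66.7%, against 25.1% of all genes, and the share that was lower was 6.67%, against 27.0%. Of the 15 tested members 8 were called higher with no overlap of arrays, against 12.0% of all genes. After median scaling 6 members were higher and 1 lower, with a median of 0.24. With groups as a random block the called members were Pfkp and Aldoa.

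Pfkp, an isoform of phosphofructokinase at the committed step of glycolysis, had 10.07 and 10.05 in EpiSC-GFP+ and 8.91 and 8.97 in EpiSC-GFP-, against 7.43 and 7.39 in Epi-Sox2 and 6.84 and 7.35 in EpiSC. The fractions of E3 were themselves 1.12 apart, and the lower of them still lay above all GOF18 arrays. The rise was 2.25 ± 0.12 (SE), or 4.75-fold (adjusted p = 1.13e-05), and the other probe of the gene rose by 1.23. Eno2, an enolase best known from neurons, had 7.72 and 7.51 in EpiSC-GFP+ and 7.69 and 7.88 in EpiSC-GFP-, against 5.37 and 5.39 in Epi-Sox2 and 5.51 and 5.86 in EpiSC. Both fractions of E3 were alike here, and the rise was 2.17 ± 0.11 (SE), or 4.49-fold (adjusted p = 1.09e-05). Aldoc, a further aldolase of neural tissue, had 8.01 and 8.09 in EpiSC-GFP+ and 7.37 and 7.29 in EpiSC-GFP-, against 6.03 and 6.12 in Epi-Sox2 and 6.55 and 6.40 in EpiSC (difference 1.41 ± 0.09, adjusted p = 1.67e-05). Eno2 and Aldoc were not in the list of glycolysis genes.

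Ndrg1 and Ddit4 are both induced by low oxygen and by other stress, and Ddit4 restrains the growth kinase mTOR. Ndrg1 had 8.05 and 7.72 in EpiSC-GFP+ and 7.97 and 7.98 in EpiSC-GFP-, against 5.05 and 5.48 in Epi-Sox2 and 7.40 and 7.12 in EpiSC. The low value was that of Epi-Sox2, and the EpiSC arrays were less than 1 log2 unit below E3. Its call (difference 1.67, adjusted p = 3.46e-05) was lost with groups as a random block (adjusted p = 0.0747). Ddit4 had 10.98 and 10.95 in EpiSC-GFP+ and 11.66 and 11.59 in EpiSC-GFP-, against 9.50 and 9.43 in Epi-Sox2 and 9.44 and 10.24 in EpiSC. The rise was 1.64 ± 0.16 (SE, adjusted p = 7.79e-05) and held with groups as a random block (adjusted p = 0.0263).

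Along the pathway, the glucose transporter Slc2a1 was 0.27 higher, hexokinase Hk2 0.31, phosphofructokinase Pfkl 0.68, aldolase Aldoa 1.11, phosphoglycerate kinase Pgk1 0.47, and pyruvate kinase Pkm 0.72. Pdk1, a kinase that inhibits pyruvate dehydrogenase, was 0.66 higher, and the oxygen sensor Egln3 was 1.00 higher. Gapdh and Ldha differed by 0.04 and 0.05 and were not called, nor were Hk1 and the transporter Slc2a3. Vegfa, a growth factor for vessels and a classical target of HIF, fell by 0.52 on its brighter probe, while its other probe was 0.85 higher, both called.

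Promoters of 2 of the glycolytic risers are shown for the letters ACGTG, the core of the element that HIF binds, searched on both strands as ACGTG and CACGT in the 250 bases before each start site. The sequences and their coordinates are those of RefSeq on GRCm38.p6, read 5′ to 3′ along the gene, with each match in capitals. Where a gene has several start sites listed, as Aldoa has 3, a match at any of them was counted. The Aldoa window, before 1 of its starts, is chr7:126799255-126799504 on the minus strand, and the Pgk1 window is chrX:106186850-106187099 on the plus strand.
Aldoa: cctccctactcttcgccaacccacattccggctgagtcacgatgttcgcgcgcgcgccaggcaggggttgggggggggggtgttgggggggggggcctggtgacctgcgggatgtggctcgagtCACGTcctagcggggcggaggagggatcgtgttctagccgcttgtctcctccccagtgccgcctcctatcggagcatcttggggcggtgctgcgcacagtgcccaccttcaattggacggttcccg
Pgk1: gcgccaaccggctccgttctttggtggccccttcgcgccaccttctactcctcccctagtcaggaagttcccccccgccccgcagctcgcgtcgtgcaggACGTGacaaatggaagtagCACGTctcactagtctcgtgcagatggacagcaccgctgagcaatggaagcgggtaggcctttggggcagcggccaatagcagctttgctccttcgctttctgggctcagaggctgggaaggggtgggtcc
These letters were found in 6 of the 9 risers of the list with a promoter in the table (Aldoa, Egln3, Hk2, Pgk1, Pkm and Slc2a1), in 1 of 3 members not called (Ldha) and in Vegfa, the member that was lower, against 18.5% of 27025 genes. Pfkp, the largest riser of the list, had none in this window. The search and the choice of both promoters followed after the values were seen, and a match is a description of the sequence.

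The same was done for the immediate early genes with TGACG, part of the element bound by CREB and ATF proteins, searched as TGACG and CGTCA. The Fos window is chr12:85473640-85473889 on the plus strand, and the Fosb window is chr7:19310046-19310295 on the minus strand.
Fos: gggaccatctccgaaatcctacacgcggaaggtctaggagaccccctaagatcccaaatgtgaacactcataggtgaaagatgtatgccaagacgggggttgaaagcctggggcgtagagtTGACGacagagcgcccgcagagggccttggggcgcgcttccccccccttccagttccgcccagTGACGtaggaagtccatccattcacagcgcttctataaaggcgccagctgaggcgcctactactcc
Fosb: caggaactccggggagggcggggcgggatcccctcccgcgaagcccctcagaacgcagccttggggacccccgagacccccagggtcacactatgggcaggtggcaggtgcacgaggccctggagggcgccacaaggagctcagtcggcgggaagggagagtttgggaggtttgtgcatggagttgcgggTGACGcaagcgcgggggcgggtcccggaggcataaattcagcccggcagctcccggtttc
The letters were found in 4 of the 7 risers (Ccn1, Fos, Fosb and Junb) and in 1 of the 3 members not called (Atf3), against 19.8% of genes. In Fos and in Fosb a match lay 66 and 60 bases before the start site.

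**Figure D3:**
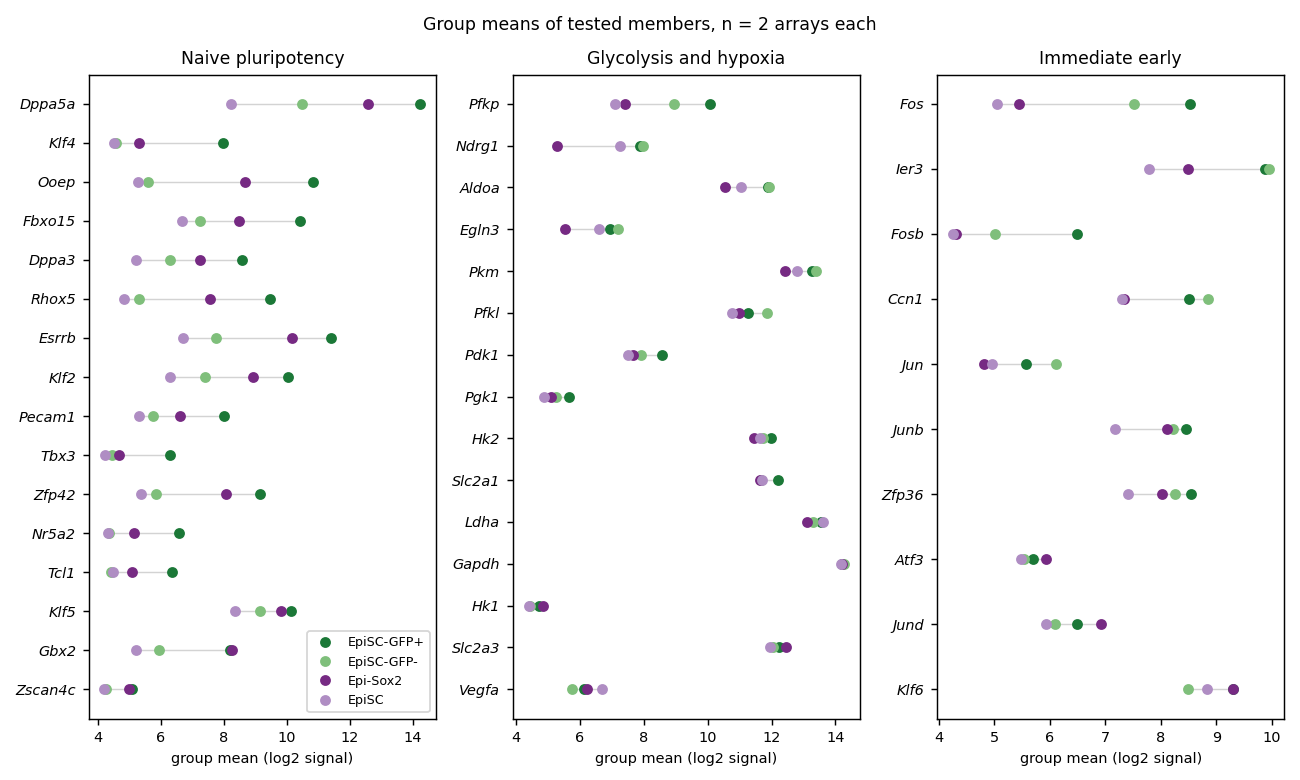
Mean log2 signal (x axis) of each tested member of the naive pluripotency, glycolysis and hypoxia, and immediate early lists in the 4 groups, with 2 arrays behind each point and genes ordered by the difference between the lines. In the naive list the EpiSC-GFP+ and Epi-Sox2 points mostly lie to the right of EpiSC-GFP- and EpiSC, so the groups of both lines interleave, while Fos, Ier3, Pfkp and Aldoa keep both E3 points above both GOF18 points.

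Genes of Nodal and activin signalling differed in both directions. Of 18 tested members 5 were higher in E3 (27.8%, against 25.1% of all genes) and 7 lower (38.9%, against 27.0%), with a median of -0.09. The risers were Foxh1, Tgif1, Smad3, Tgif2 and Gdf3, and the falls were Tdgf1, Tgfbr1, Skil, Lefty1, Smad4, Lefty2 and Fst. Nodal itself differed by -0.31 and was not called (adjusted p = 0.0618). With groups as a random block Tgif1 was called higher, and Tdgf1, Skil, Smad4 and Tgfbr1 lower.

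Tgif1, a homeodomain repressor that binds Smad proteins, had 8.04 and 8.12 in EpiSC-GFP+ and 8.23 and 8.51 in EpiSC-GFP-, against 7.01 and 7.06 in Epi-Sox2 and 7.13 and 7.24 in EpiSC. All E3 arrays lay above all GOF18 arrays, and each line varied little within itself. The mean was 8.23 ± 0.21 in E3 and 7.11 ± 0.10 in GOF18 (SD, n = 4 each), a difference of 1.12 ± 0.10 (SE), or 2.17-fold (adjusted p = 5.83e-05). Of its 2 other probes 1 was 1.08 higher in E3 and the other was 0.77 lower, so the probes of Tgif1 were called in opposite directions. Foxh1, the DNA-binding partner of Smad2, had 7.97 and 8.18 in EpiSC-GFP+ and 8.68 and 8.32 in EpiSC-GFP-, against 6.65 and 6.58 in Epi-Sox2 and 7.63 and 7.68 in EpiSC. The gap to EpiSC was narrow, and the call (difference 1.15, adjusted p = 7.49e-05) was lost with groups as a random block (adjusted p = 0.0652).

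Tdgf1, the Nodal co-receptor, had 4.55 and 4.95 in EpiSC-GFP+ and 5.17 and 4.60 in EpiSC-GFP-, against 5.78 and 6.35 in Epi-Sox2 and 6.24 and 6.32 in EpiSC. It was detected on 2 of the 4 E3 arrays and on all GOF18 arrays, and fell by 1.36 ± 0.17 (SE, adjusted p = 0.000289), while its other probe differed by 0.18. The feedback inhibitors Lefty1 and Lefty2 fell by 0.90 and 0.60. The common mediator Smad4, the receptor Tgfbr1 and the corepressor Skil fell by 0.89, 1.00 and 1.00.

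Mapk13, the delta isoform of p38 kinase, had 7.87 and 7.97 in EpiSC-GFP+ and 7.46 and 7.60 in EpiSC-GFP-, against 7.45 and 7.14 in Epi-Sox2 and 6.32 and 6.49 in EpiSC. The lowest E3 array and the highest GOF18 array were almost level, and EpiSC alone stood clearly apart. The mean was 7.73 ± 0.23 in E3 and 6.85 ± 0.54 in GOF18 (SD, n = 4 each), a difference of 0.87 ± 0.11 (SE), or 1.83-fold (adjusted p = 0.00023). Its other probe rose by 0.69, and the call was lost with groups as a random block (adjusted p = 0.114). Of 13 tested genes of the p38 and JNK kinases 4 were higher in E3 and 2 lower, with a median of 0.17 that was -0.21 after median scaling. These shares were 30.8% and 15.4%, against 25.1% and 27.0% of all genes. Map2k6, which activates p38, rose by 0.96, and Map2k4, which activates JNK, fell by 0.71. The lower call of Mapk9, a JNK, was smaller, at -0.33. No member of this list was called with groups as a random block.

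In the FGF and ERK list 5 of 12 tested members were higher, 2 were lower and the median was -0.03. These shares were 41.7% and 16.7%, against 25.1% and 27.0% of all genes. Besides Egr1 the risers were Etv5, Fgf4 and the receptors Fgfr1 and Fgfr2, the first 3 at differences of 0.62, 0.60 and 0.60. Fgfr2 was detected on 2 E3 arrays and on no GOF18 array, so no size is given. Egr1 alone of the list was called with groups as a random block. Dusp6, a phosphatase that is induced by ERK and restrains it, fell, with 9.92 and 9.97 in EpiSC-GFP+ and 9.34 and 9.28 in EpiSC-GFP-, against 11.10 and 11.10 in Epi-Sox2 and 10.16 and 10.01 in EpiSC. The EpiSC arrays were only just above those of EpiSC-GFP+, and the call (-0.97, adjusted p = 6.29e-05) was lost with groups as a random block (adjusted p = 0.0996). Egr1 and Dusp6, both known as targets of ERK, thus differed between the lines in opposite directions.

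Wnt pathway members were lower in 4 of 10 cases and higher in 2, with a median of -0.17. Ctnnb1, which encodes beta-catenin, had 9.21 and 9.25 in EpiSC-GFP+ and 8.69 and 8.59 in EpiSC-GFP-, against 10.22 and 10.31 in Epi-Sox2 and 10.32 and 10.19 in EpiSC. The GOF18 arrays were nearly level and all E3 arrays lay below them, by 1.33 ± 0.09 on average (SE, adjusted p = 2.02e-05), and the other probe fell by 1.60. Axin2, a target and inhibitor of the pathway, fell by 1.00. The risers were Porcn, an enzyme that lipidates Wnt ligands, at 0.68, and the Wnt-binding protein Sfrp1 at 0.47. Ctnnb1 alone of the list was called with groups as a random block.

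Sp5, a factor known as a direct Wnt target in the primitive streak, had 4.27 and 4.35 in EpiSC-GFP+ and 4.46 and 4.43 in EpiSC-GFP-, against 5.84 and 6.12 in Epi-Sox2 and 6.80 and 6.55 in EpiSC. It was detected on all 4 GOF18 arrays and on no E3 array, so its signal was at least 2.53-fold lower in E3 (adjusted p = 1.13e-05). Of 8 tested genes of primitive streak and mesoderm 7 were called lower in E3 and none higher. For 5 of them (Sp5, Eomes, Lhx1, Mixl1 and Wnt3) no E3 array was detected, so they entered the test through GOF18 and the count follows in part from that filter. The other 2 were Gsc and Fgf8. Gsc, a streak homeobox gene, averaged 4.45 in EpiSC-GFP+ and 5.98 in EpiSC-GFP-, against 4.53 in Epi-Sox2 and 7.44 in EpiSC, and Fgf8 averaged 5.60 and 7.36 in these E3 fractions, against 5.40 in Epi-Sox2 and 8.83 in EpiSC. Sp5 alone was called with groups as a random block.

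BMP and Id genes were split, with 4 of 8 higher, 3 lower and a median of 0.39. These shares were 50% and 37.5%, against 25.1% and 27.0% of all genes. Id1, an inhibitor of differentiation induced by BMP, had 6.32 and 6.36 in EpiSC-GFP+ and 6.18 and 6.39 in EpiSC-GFP-, against 5.004 and 4.92 in Epi-Sox2 and 5.34 and 5.40 in EpiSC. It was level in E3 and 1.15 ± 0.09 higher there (SE, adjusted p = 3.99e-05). Id2, of the same family, was detected on all GOF18 arrays, at 6.64 and 6.33 in Epi-Sox2 and 5.13 and 4.80 in EpiSC, and on no E3 array, and was at least 1.67-fold lower in E3, a call that was lost with groups as a random block (adjusted p = 0.0649). The ligands Bmp4 and Bmp7 were 0.86 and 0.75 higher, while the mediators Smad1 and Smad5 fell by 1.24 and 0.86. Id1 and Smad1 were the members called with groups as a random block.

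Core pluripotency factors differed in both directions. Of 9 tested genes shared by both pluripotent states, 5 were higher (Sox2, Dppa4, Pou5f1, Trim28 and Utf1) and 4 lower (Lin28a, Zfp281, Sall4 and Nanog), with a median of 0.39. None was called with groups as a random block. Pou5f1 had 12.78 and 12.73 in EpiSC-GFP+ and 13.16 and 13.14 in EpiSC-GFP-, against 11.88 and 12.13 in Epi-Sox2 and 12.24 and 12.35 in EpiSC. Its rise of 0.80 ± 0.09 (SE, adjusted p = 0.000205) came from its brighter probe, the other probe differed by 0.06 and was not called, and with groups as a random block the adjusted p was 0.0679. Sox2 had 9.07 and 8.997 in EpiSC-GFP+ and 8.61 and 8.66 in EpiSC-GFP-, against 8.14 and 8.24 in Epi-Sox2 and 7.36 and 7.13 in EpiSC. E3 cells thus lay above both GOF18 cultures on this probe, the Sox2-overexpressing one included, at 1.12 ± 0.09 (SE, adjusted p = 4.8e-05, and 0.0521 with groups as a random block). The other Sox2 probe differed by -0.11 and was not called. It had 4.19 to 4.88 on the 8 arrays, near the dimmest detected signals of 4.65 to 5.16, so it says little about the difference. Whether either probe reads the transgene was not tested. Nanog had 8.65 and 8.76 in EpiSC-GFP+ and 7.18 and 7.69 in EpiSC-GFP-, against 8.72 and 8.46 in Epi-Sox2 and 8.86 and 8.53 in EpiSC, so EpiSC-GFP- alone stood low. Its difference was -0.57 ± 0.14 (SE, adjusted p = 0.00812), and 0.07 with EpiSC-GFP+ alone as E3. Lin28a, an RNA-binding protein that blocks let-7 maturation, fell by 1.05.

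Genes of the naive state were higher in E3 on average over groups, but not group by group. Of 16 tested members 15 were higher in E3 (93.8%, against 25.1% of all genes) and none lower, with a median of 1.02 that was 0.72 after median scaling. In none of the 15 were the arrays of the lines free of overlap, and none was called with groups as a random block. Dppa5a, a marker of embryonic stem cells, had 14.24 and 14.24 in EpiSC-GFP+ and 10.52 and 10.45 in EpiSC-GFP-, against 12.50 and 12.64 in Epi-Sox2 and 8.32 and 8.15 in EpiSC. The groups ran in the order EpiSC-GFP+, Epi-Sox2, EpiSC-GFP-, EpiSC, and the mean difference of 1.96 set 1 high and 1 lower group of E3 against the same in GOF18. Set against Epi-Sox2 alone it was -0.20. Esrrb, an orphan nuclear receptor of the naive network, averaged 11.41 in EpiSC-GFP+ and 7.75 in EpiSC-GFP-, against 10.16 in Epi-Sox2 and 6.71 in EpiSC. Klf4, a reprogramming factor, averaged 7.97 and 4.58 in the E3 fractions, against 5.31 in Epi-Sox2 and 4.53 in EpiSC, and was detected on this probe, the brightest of 3, only in EpiSC-GFP+ and Epi-Sox2. The calls of this list therefore rest on a mean over groups that interleave.

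The groups of both lines interleaved in genes of the germ line as well. All 4 tested members were higher (Dnmt3l, Tex19.1, Dazl and Taf7l), against 25.1% of all genes, with a median of 0.87 and no gene free of overlap. Dazl was detected on 2 E3 arrays and no GOF18 array, so it entered the test through E3 and the count follows in part from that filter. Dnmt3l, a cofactor of the de novo DNA methyltransferases, had 11.66 and 11.70 in EpiSC-GFP+ and 7.77 and 7.88 in EpiSC-GFP-, against 9.30 and 9.51 in Epi-Sox2 and 6.02 and 6.11 in EpiSC. Its difference of 2.02 had a standard error of 0.09 in the fit by group and of 1.07 with groups as a random block (adjusted p = 0.3). Gadd45g, a stress-induced growth regulator, behaved alike, with 9.10 and 9.06 in EpiSC-GFP+ and 7.61 and 7.62 in EpiSC-GFP-, against 7.67 and 7.61 in Epi-Sox2 and 5.63 and 5.55 in EpiSC. It led the p53 response list, of which 4 of 11 tested members were higher (3 Gadd45 genes and Sesn1) and 4 lower, with a median of -0.08. Mdm2, the ubiquitin ligase that holds p53 down, fell by 0.84. With groups as a random block no member of this list was called (adjusted p = 0.0964 for Gadd45g and 0.0803 for Mdm2).

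Of 8 tested genes of the primed epiblast 4 were lower in E3 (Car4, Otx2, Igfbp3 and Fgf5) and none higher, with a median of -0.28. Car4, a carbonic anhydrase, had 7.93 and 7.87 in EpiSC-GFP+ and 7.54 and 7.64 in EpiSC-GFP-, against 8.09 and 8.27 in Epi-Sox2 and 9.37 and 9.36 in EpiSC. Mostly EpiSC stood high, and the call (-1.03, adjusted p = 5.62e-05) was lost with groups as a random block (adjusted p = 0.0894). Otx2, a homeobox gene of the primed epiblast, fell by 0.76 with no overlap of arrays. Fgf5 averaged 6.51 in EpiSC-GFP+ and 8.73 in EpiSC-GFP-, against 6.92 in Epi-Sox2 and 9.43 in EpiSC, so its difference of -0.56 was smaller than the spread inside either line.

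**Figure D4:**
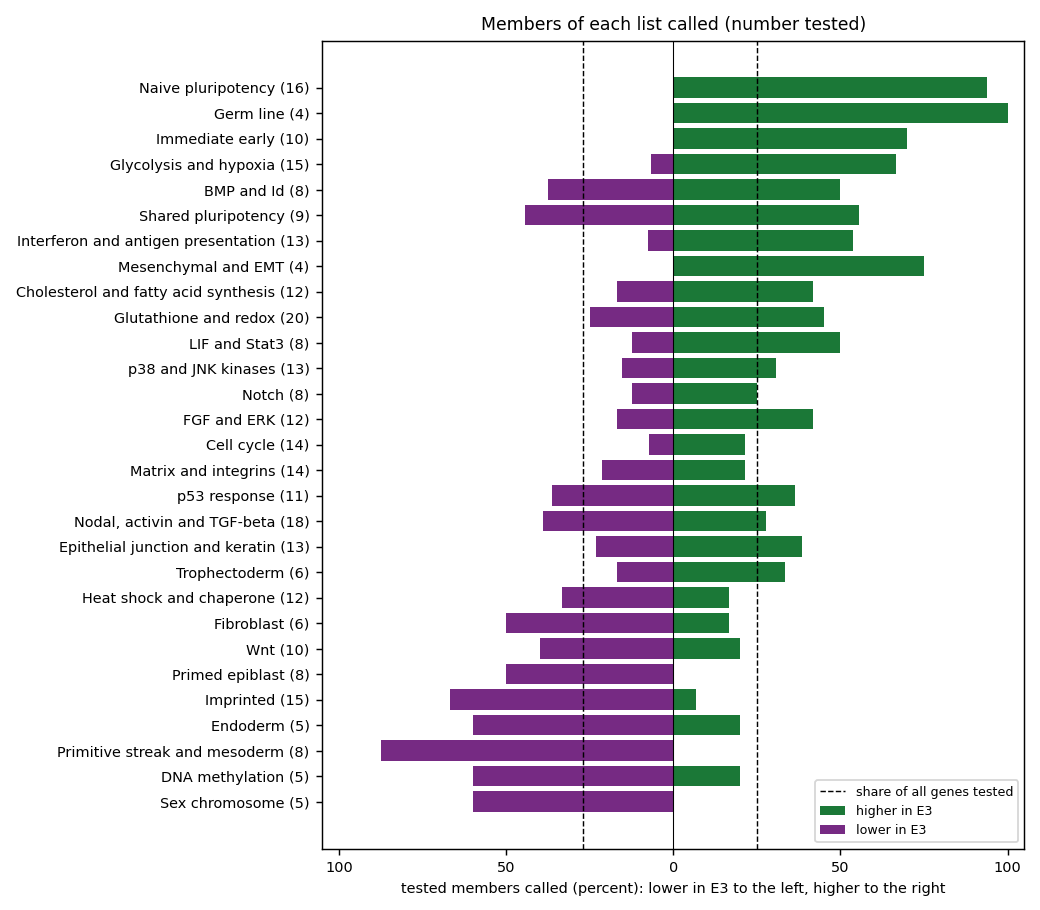
Share of tested members (x axis, percent) called higher in E3 (green, right) and lower in E3 (purple, left) for each list with at least 3 tested members, ordered by median difference. Dashed lines are the shares among all genes tested, 25.1% higher and 27.0% lower; the naive list reaches 93.8% higher and the streak list 87.5% lower, with 5 of the 8 streak genes detected on no E3 array.

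Genes of epithelial contacts did not move together. Of 13 tested members 5 were higher (Tjp3, St14, Cldn3, Spint1 and Cldn4) and 3 lower, or 38.5% and 23.1% against 25.1% and 27.0% of all genes, with a median of -0.09. For 2 of the 13 no E3 array was detected, so they entered the test through GOF18. Cdh1, or E-cadherin, the adhesion molecule that binds beta-catenin, had 7.29 and 7.12 in EpiSC-GFP+ and 7.09 and 7.21 in EpiSC-GFP-, against 8.67 and 8.28 in Epi-Sox2 and 8.27 and 8.62 in EpiSC. The fractions of E3 were level and lay below all GOF18 arrays, with a fall of 1.28 ± 0.13 (SE), or 2.43-fold (adjusted p = 8.24e-05, and 0.021 with groups as a random block, the single call of the list there). Tjp1, a scaffold of tight junctions, was called lower and was detected on no E3 array, too near background in GOF18 for a size to be given. Tjp3, its relative, was 0.73 higher.

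Zeb1, a repressor of Cdh1, had 6.54 and 6.52 in EpiSC-GFP+ and 6.65 and 6.48 in EpiSC-GFP-, against 4.84 and 4.77 in Epi-Sox2 and 5.69 and 5.96 in EpiSC. It was level in E3 and 1.23 ± 0.10 higher there (SE), or 2.35-fold (adjusted p = 3.97e-05, and 0.0382 with groups as a random block). Of 4 tested mesenchymal genes 3 were higher (Zeb1, Mmp2 and Vim), with a median of 0.30 that was -0.07 after median scaling. Matrix and integrin genes were split, with 3 of 14 higher, 3 lower (21.4% each way, below the shares of all genes) and a median of -0.07 that was -0.42 after median scaling. None was called with groups as a random block. Nid1, a basement membrane protein, was 0.54 higher on average but was detected only in EpiSC-GFP+ and Epi-Sox2, and with EpiSC-GFP- alone as E3 the difference was -0.36. Itgb5, an integrin, fell by 0.90. Of the 6 fibroblast genes tested, Thy1 was higher by 0.69 and Ccn2 and Acta2 lower by 0.24 and 0.33, and Col6a1 was called lower with no E3 array detected, with a median of -0.15. The summed signal of these 6 was 11.14 to 11.59 in E3 and 11.15 to 12.04 in GOF18, on a log2 scale, and its part in the matrix genes was not tested.

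Markers of other embryonic tissues were few. Of 5 tested endoderm genes 1 was higher (Apoe) and 3 lower, with a median of -0.44. These shares were 20% and 60%, against 25.1% and 27.0% of all genes. For 2 of the 5 no E3 array was detected, so they entered the test through GOF18 and the count follows in part from that filter. Gata6, an endoderm factor, was detected on all GOF18 arrays, at 5.39 to 5.78, and on no E3 array, and was at least 1.47-fold lower in E3. Apoe, a lipid carrier, was 0.59 higher, with EpiSC low, and set against Epi-Sox2 alone it differed by -0.21. Of 6 tested trophectoderm genes 2 were higher (Elf3 and Tfap2c) and 1 lower (Krt8), with a median of -0.10. Elf3, an epithelial factor, rose by 1.07, and the keratin Krt8 fell by 0.80. Nes was the single neuroectoderm gene tested, and it was called lower by 0.52 on its brighter probe while its other probe differed by 0.40 in the opposite direction. Of 2 tested Hox and Cdx list members Meis2 was lower and Meis1 was not called, with a median of -0.11. With groups as a random block no member of these 4 lists was called (adjusted p = 0.0541 for Gata6 and 0.0949 for Elf3).

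Sterol synthesis showed higher levels of its regulator. Srebf2, the factor that drives cholesterol synthesis genes, had 8.38 and 8.44 in EpiSC-GFP+ and 8.99 and 8.94 in EpiSC-GFP-, against 7.04 and 6.80 in Epi-Sox2 and 7.48 and 7.73 in EpiSC. The rise was 1.43 ± 0.10 (SE), or 2.69-fold (adjusted p = 2.65e-05), with the lines well apart. Of 12 tested genes of cholesterol and fatty acid synthesis 5 were higher and 2 lower, with a median of 0.25 that was 0.00 after median scaling. Mvd and Cyp51, enzymes of the sterol pathway, rose by 0.91 and 0.66, and Insig1, which restrains it, by 0.54. Acaca, the first enzyme of fatty acid synthesis, fell by 0.73. Srebf2 alone of the list was called with groups as a random block.

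Glutathione and redox genes included large differences that did and did not follow the line. Of 20 tested members 9 were higher and 5 lower, or 45% and 25% against 25.1% and 27.0% of all genes, with a median of 0.22 that was 0.00 after median scaling. Gstp1, a glutathione transferase, averaged 11.19 in EpiSC-GFP+ and 11.54 in EpiSC-GFP-, against 9.99 in Epi-Sox2 and 10.14 in EpiSC, a rise of 1.30 with no overlap. Its close relative Gstp2 had 10.46 and 10.42 in EpiSC-GFP+ and 6.18 and 6.45 in EpiSC-GFP-, against 7.84 and 8.05 in Epi-Sox2 and 4.99 and 4.54 in EpiSC. Its difference of 2.03 was an average over fractions that were 4.13 apart. The array signals of such near-identical relatives can share RNA, so the split between them is uncertain. Gclm, a subunit of the enzyme that starts glutathione synthesis, fell by 0.77. Gstp1 alone of the list was called with groups as a random block.

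Imprinted genes, which are expressed from 1 parental copy, were mostly lower. Of 15 tested members 10 were lower (66.7%, against 27.0% of all genes) and 1 higher, with a median of -0.44. Of the 15 tested members 1 was called lower with no overlap of arrays, against 15.9% of all genes. Mest had 5.56 and 5.81 in EpiSC-GFP+ and 5.58 and 5.76 in EpiSC-GFP-, against 7.61 and 6.80 in Epi-Sox2 and 7.25 and 7.03 in EpiSC. Both E3 fractions were level, the fall was 1.49 ± 0.17 (SE), or 2.82-fold (adjusted p = 0.000168), and its other 2 probes fell by 1.14 and 2.18. It was the single member of the list called with groups as a random block. Nnat, Impact, Ndn, Peg3 and Cdkn1c fell by 0.71, 0.66, 0.63, 0.62 and 0.57, each with overlap of arrays. Ascl2, the member called higher, was detected only in EpiSC-GFP-, at 5.15 and 5.27. It had 4.45 on both EpiSC-GFP+ arrays and 4.25 to 4.37 in GOF18, so its call rested on EpiSC-GFP-.

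In the DNA methylation list 3 of 5 tested members were lower (Uhrf1, Dnmt3b and Dnmt1) and 1 higher (Mbd3), with a median of -0.64. Uhrf1, which guides Dnmt1 to replicated DNA, had 9.996 and 9.91 in EpiSC-GFP+ and 9.59 and 9.65 in EpiSC-GFP-, against 11.09 and 11.06 in Epi-Sox2 and 10.58 and 10.95 in EpiSC. The fall was 1.13 ± 0.10 (SE, adjusted p = 6.8e-05), with no overlap. Dnmt3b and Dnmt1, the de novo and the maintenance methyltransferase, fell by 0.72 and 0.64, also with no overlap, and Mbd3, a subunit of a repressor complex, was 0.73 higher. Uhrf1 alone of the list was called with groups as a random block.

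Of 13 tested interferon and antigen presentation genes 7 were higher and 1 lower, with a median of 0.38 that was 0.01 after median scaling. These shares were 53.8% and 7.69%, against 25.1% and 27.0% of all genes. Ifitm3, a membrane protein that restricts viruses, had 11.85 and 11.72 in EpiSC-GFP+ and 11.33 and 11.25 in EpiSC-GFP-, against 10.39 and 10.43 in Epi-Sox2 and 10.29 and 9.91 in EpiSC, a rise of 1.28 ± 0.11 (SE, adjusted p = 4.64e-05). No E3 array came near the GOF18 range. Irf1 fell by 0.61 on its brightest probe, and 1 of its 3 other probes was called 0.55 higher. In the LIF and Stat3 list 4 of 8 were higher, led by Bcl3 at 0.65, and Stat3 was lower by 0.65, with a median of 0.18 that was -0.15 after median scaling. In the Notch list 2 of 8 were higher, led by Hey1 at 0.73, and Notch1 was lower and detected on no E3 array, with a median of -0.03. Among 14 cell cycle genes 3 were higher, led by Ccnd3 at 0.46, and Ccnd1 was lower by 0.26, with a median of -0.05. Ifitm3 was the single member of these 4 lists called with groups as a random block.

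The largest falls were in genes of varied roles. Bcas2, a component of the spliceosome, had 6.22 and 6.10 in EpiSC-GFP+ and 5.89 and 6.14 in EpiSC-GFP-, against 8.06 and 8.19 in Epi-Sox2 and 8.09 and 8.31 in EpiSC. Each line was level within itself, and the fall was 2.07 ± 0.10 (SE), or 4.21-fold (adjusted p = 1.09e-05, and 0.00367 with groups as a random block). Psmd14, a deubiquitinase of the proteasome lid, had 5.94 and 5.85 in EpiSC-GFP+ and 5.61 and 5.42 in EpiSC-GFP-, against 7.56 and 7.15 in Epi-Sox2 and 7.91 and 7.65 in EpiSC, a fall of 1.86. Ddx21, a nucleolar RNA helicase, fell by 1.71, Marchf5, a ubiquitin ligase of mitochondria, by 1.83, and Slc25a3, the mitochondrial phosphate carrier, by 1.70. Tpp2, a large peptidase that works after the proteasome, was detected on all GOF18 arrays, at 6.06 to 6.57, and on no E3 array, and was at least 2.62-fold lower. Plk4, the kinase of centriole duplication, was likewise detected only in GOF18 and was at least 2.04-fold lower.

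Probes of 2 of these genes disagreed. Pabpc1, the poly(A)-binding protein of the cytoplasm, had 8.59 and 8.42 in EpiSC-GFP+ and 7.96 and 8.13 in EpiSC-GFP-, against 9.99 and 9.95 in Epi-Sox2 and 10.21 and 10.34 in EpiSC. This was a fall of 1.85 on its brightest probe, while the other 2 probes differed by 0.11 and 0.72, the larger of them called. Exosc2, a subunit of the RNA exosome, fell by 2.03 on its brighter probe, with arrays 6.49 to 8.30 in E3 and 9.16 to 9.98 in GOF18, and was called 0.99 higher on the other; its fall was lost with groups as a random block (adjusted p = 0.0582). Among genes called with at least 1 log2 unit and with more than 1 tested probe, all probes were called the same way in 30 of 44 that were higher and in 28 of 61 that were lower, and 5 and 8 had probes called in opposite directions.

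The remaining large falls were Vstm2l, Nt5e, Noct, Ppp4r3b and Fam91a1. Vstm2l had 6.72 and 6.56 in EpiSC-GFP+ and 7.26 and 7.12 in EpiSC-GFP-, against 11.67 and 11.50 in Epi-Sox2 and 7.50 and 7.85 in EpiSC. Epi-Sox2 alone stood far above, so the difference of -2.72 was carried by that culture, and its call was lost with groups as a random block (adjusted p = 0.0895). Nt5e, an enzyme of the cell surface that makes adenosine, had 4.61 and 5.04 in EpiSC-GFP+ and 5.73 and 5.60 in EpiSC-GFP-, against 7.10 and 7.37 in Epi-Sox2 and 7.01 and 6.94 in EpiSC, a fall of 1.86. Both GOF18 cultures were alike and above all E3 arrays. Ppp4r3b, a regulatory subunit of protein phosphatase PP4, and Noct were called lower on a brighter probe that was detected on all GOF18 arrays and on no E3 array. The other probe of Ppp4r3b fell by 1.14, and that of Noct differed by -0.38 and was not called. Fam91a1 fell by 1.71.

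The remaining large rises were Aire, Slc39a4, Tmc4 and Cox7a1. Aire, a transcriptional regulator known from the thymus, had 7.72 and 7.20 in EpiSC-GFP+ and 4.89 and 5.45 in EpiSC-GFP-, against 4.59 and 4.87 in Epi-Sox2 and 4.41 and 4.29 in EpiSC. EpiSC-GFP+ stood apart and EpiSC-GFP- was just above the GOF18 arrays, and the call (1.77, adjusted p = 6.29e-05) was lost with groups as a random block (adjusted p = 0.101). Slc39a4, a zinc importer, had 8.93 and 8.77 in EpiSC-GFP+ and 9.06 and 9.10 in EpiSC-GFP-, against 7.70 and 7.71 in Epi-Sox2 and 6.99 and 7.51 in EpiSC, a rise of 1.49 with E3 level. Cox7a1, a subunit of cytochrome oxidase, was 1.38 higher. Tmc4 was 1.41 higher, with EpiSC-GFP- highest at 8.12 and 8.13, and its call was lost with groups as a random block (adjusted p = 0.0534).

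Of 8541 genes tested, 168 were detected on all 4 GOF18 arrays and on no E3 array, and 151 of these were called. The reverse was found for 0 genes. Clone, predicted and unnamed entries were left out of both counts. E3 arrays had fewer detected probes in all. Their dimmest detected signal was also higher, at 4.86 to 5.16, against 4.65 to 4.76 on the GOF18 arrays. The part of these in the 168 was not tested.

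Genes of the sex chromosomes were lower in E3 in 3 of 5 cases (60%, against 27.0% of all genes), with a median of -0.82. Eif2s3y, the Y-linked copy of a translation factor, had 5.64 and 5.33 in EpiSC-GFP+ and 5.15 and 5.64 in EpiSC-GFP-, against 6.98 and 7.01 in Epi-Sox2 and 6.88 and 7.002 in EpiSC. The gap between the lines was wider than the spread in either, with a fall of 1.53 ± 0.13 (SE), or 2.89-fold (adjusted p = 4.64e-05, and 0.0134 with groups as a random block). Its X-linked partner Eif2s3x fell by 0.82, and Ddx3x, an X-linked RNA helicase, by 0.95, both with no overlap. With groups as a random block Ddx3x was called and Eif2s3x was not. Uty and Kdm6a were not called.

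By chromosome, the median difference ran from -0.13 on X and -0.12 on 18 to 0.09 on 7 and 0.12 on 17, over 188 to 712 genes a chromosome placed through RefSeq on GRCm38.p6. On chromosome 17, 32.8% of genes were higher in E3, against 25.1% of all genes. After median scaling all chromosome medians were below 0, from -0.40 on X to -0.19 on 17, and the order of these ends was kept.

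**Figure D5:**
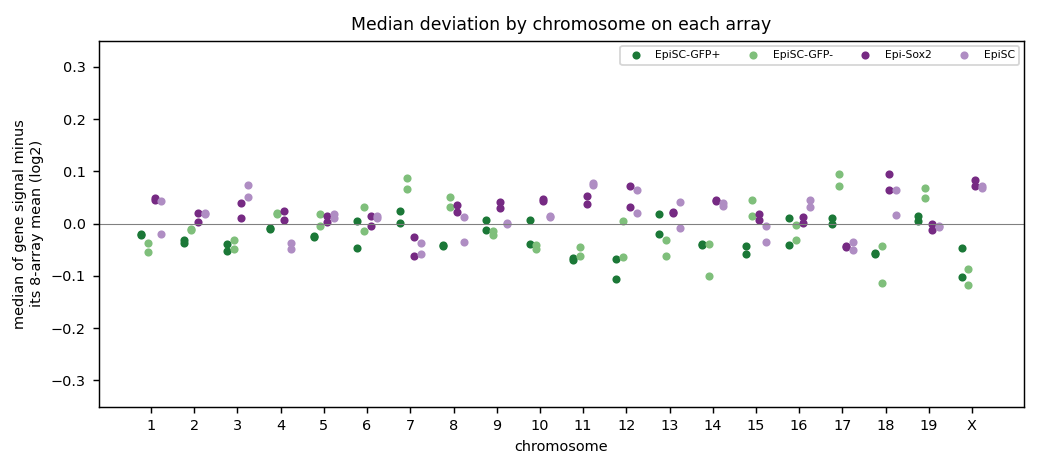
Median over genes of each chromosome (x axis) of log2 signal minus the gene's mean over 8 arrays (y axis), 1 point per array, coloured by group with E3 fractions left of GOF18 cultures. On chromosome 17 the E3 arrays lie above the GOF18 arrays, and on X they lie below them; the chromosome medians of the difference between the lines are 0.12 and -0.13.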

How the data were processed

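The deposited scanner table gives, per the file headers, a bead intensity and a detection p-value for each of 25697 probes on each array. The intensities are not normalized per the labels, and the submitters' processing notes name BeadStudio 3.2, lumi and RMA. From 300 ng of total RNA, labelled RNA was made by 12 h of in vitro transcription, per the labels' protocols. The series matrix of log2 values deposited by the authors was used only as an alternative.

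Intensities of the 8 arrays were corrected by normexp from the detection p-values (offset 16), quantile-normalized and taken to log2 (limma 3.58.1, R 4.3.3). Signal values in the text are these log2 values, and a level is compared only within a probe. A probe was kept (11346 were) if both arrays of at least 1 of the 4 groups had a detection p-value under 0.01, and "detected" means under 0.01 on an array. Of all probes 23978 have 1 gene symbol, 0 have several and 1719 have none in the platform annotation, and symbols were updated through Entrez numbers (23962 found). A gene was represented by its probe with the highest mean, which gave 7902 genes and 639 unnamed probes. Limma's linear model with 1 mean per group and empirical Bayes moderation (4 residual and 5.06 prior degrees of freedom) was followed by Benjamini-Hochberg adjustment over all 8541. With groups as a random block, line was the only factor and the consensus correlation was 0.653. A gene with all its probes undetected throughout a line has a lower bound as its fold: on each array of that line its value was raised to the dimmest detected signal if it lay under it.

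The members, the 31 gene lists, the tests and the alternatives were chosen with earlier results of these data known. Named genes are Nanog, Sox2, Pou5f1, Mapk13 and Tgif1, the 15 largest rises and falls among called genes without overlap of arrays (clone and predicted names left out), and the largest called rise and fall of each list with at least 3 tested members; other list members are examples chosen after their values were seen. On simulated arrays of 8541 genes for this contrast, 70% of 50 genes changed by 0.5 log2 were recovered and 100% of 50 at each of 1, 1.5 and 2, and 2.63% of calls were false. Only 200 genes were changed, and the simulated noise was between arrays of a group alone. The false share therefore does not cover variation between cultures of a line. Array number limits the precision, and depth has no meaning for these values. Genes were placed on chromosomes, and promoters read, from RefSeq on GRCm38.p6; the array files name no genome build.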

Additional observations from a re-analysis of the deposited data

Results flagged for a closer look

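Among the named genes, 160 sets of 4 arrays (each gene in each line) were searched for an array far from the other three by Dixon's criterion at the 95% level, and 6 were found. Chance alone marks about 1 set in 20. Pfkp was low on EpiSC replicate 1 of GOF18, at 6.84, against 7.35 to 7.43 on the other GOF18 arrays. Ddit4 was high on EpiSC replicate 2 of GOF18, at 10.24, against 9.43 to 9.50 on the others. Fosb was at 4.18 on EpiSC replicate 1, against 4.32 to 4.33, none of them detected. Ddx21 was low on EpiSC-GFP- replicate 2 of E3, at 7.06, against 7.36 to 7.41. Plk4 was at 4.25 on EpiSC-GFP+ replicate 2, against 4.32 to 4.34, none of them detected. Vegfa was low on EpiSC-GFP- replicate 1 of E3, at 5.47, against 6.04 to 6.15. Leaving out each array in turn turned the direction of none of these 6 genes.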

How the results depend on the processing

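Quantities are genes called in E3 against GOF18. Called genes with at least 1 log2 unit, 472 in the fit as reported, were 172 with a normexp offset of 50, 104 with no background correction, 860 with median scaling, 1309 on the authors' deposited values, 296 with groups as a random block and 742 with EpiSC-GFP+ alone as E3. Median scaling called 548 higher and 3547 lower. With line as the only factor and no block, 2100 were called, 879 higher and 1221 lower; with groups as a random block 397, 99 and 298, all 397 without overlap. Genes without overlap were 3675 with EpiSC-GFP+ alone as E3 and 3597 with Epi-Sox2 alone as GOF18, where fewer arrays are compared. Leaving out 1 array gave 3610 to 4402 called, 1720 to 2115 higher, 1847 to 2296 lower, 452 to 500 with at least 1 log2 unit and 2349 to 2768 without overlap. Of 2064 comparisons of 80 named genes with 26 alternatives, 1931 kept direction and side of the threshold, 123 lost the call and 10 turned. Those were, with EpiSC-GFP+ alone, Nanog (0.066); with EpiSC-GFP- alone, Nid1 (-0.36), Ccnd1 (0.0133) and Gstp2 (-0.0366); with Epi-Sox2 alone, Dppa5a (-0.20), Apoe (-0.21) and Hspb1 (-0.28); and Hspd1 without Epi-Sox2 replicate 1 (0.67), without EpiSC replicate 1 (0.82) or without EpiSC replicate 2 (0.58), where its other probe became the brightest; over all left-out arrays Hspd1 ranged from -1.20 to 0.82. Of 1550 list counts, 269 moved by over 1.5 times. Replicate numbers did not pair arrays (correlations of deviations -0.02 to 0.11); the replicate block gave 4382 called genes, 2106 higher and 2276 lower, and lost Ccnd1. A slide block was not run, since the tables name no slide.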

Other observations

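The 423 genes called with at least 1 log2 unit and without overlap of arrays were also placed in the T9 epiblast line (1 array, so with no replicate check) and in embryonic stem cells (2 arrays), after normalizing all 11 arrays together. T9 lay nearer to the E3 mean or beyond it in 46 and 36 genes, and nearer to the GOF18 mean or beyond it in 103 and 238. Of the 98 genes higher in E3, T9 lay on the E3 side of the midpoint in 39, and of the 325 lower in E3 in 43. Embryonic stem cells lay beyond GOF18 in 305 of the 423 genes.

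On that common scale Tgif1 was 8.49 in T9, within its range of 8.41 to 8.88 in E3, against 7.40 to 7.63 in GOF18. Mapk13 was 5.53 in T9, below its range of 7.84 to 8.34 in E3 and of 6.71 to 7.83 in GOF18. Fos was 10.56 in T9, above its E3 range of 7.87 to 8.91, while GOF18 had 5.34 to 5.89 and embryonic stem cells 7.52 and 7.69. Pfkp was 7.57 in T9, within the GOF18 range of 7.23 to 7.81, against 9.28 to 10.42 in E3. Bcas2 was 9.004 in T9 and 11.94 and 11.88 in embryonic stem cells, against 6.25 to 6.60 in E3 and 8.43 to 8.68 in GOF18. Cdh1 was 7.05 in T9, below its range of 7.48 to 7.67 in E3 and of 8.64 to 9.04 in GOF18. The T9 cells were grown on feeder cells in another medium, so line and culture cannot be told apart there.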
